A study of Homo sapiens with 6 samples.

Results

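The 43 genes described here build N-linked glycans and glycosylphosphatidylinositol (GPI) anchors. They were chosen by name: 87 probe sets of the array carried exactly 1 of their symbols in the platform annotation. The 43 genes are a small share of the 19775 genes that probe sets with 1 symbol name. Expression was measured in RL, an established human B lymphoid line from follicular lymphoma whose genotype is recorded as t(14,18)+. MALC are multicellular aggregates of these cells, collected after 10 days, and the comparison group was grown in suspension and collected in exponential growth. Neither group was treated, and all samples come from this single line. Each group had 3 samples, numbered 1 to 3, with 1 array per sample. The comparison asks how the expression of these genes differs between aggregates and suspension.

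Both pathways work at the membrane of the endoplasmic reticulum and both draw on dolichol, a long isoprenoid lipid that carries sugars. For N-glycans, a sugar tree is assembled on dolichol pyrophosphate by DPAGT1 and the ALG enzymes, at first on the cytosolic and then on the luminal face. The oligosaccharyltransferase complex then moves the tree to asparagines of nascent proteins. For GPI anchors, the PIG enzymes build a glycolipid on phosphatidylinositol, a transamidase attaches it to the C-terminus of proteins, and PGAP enzymes remodel it. Dolichol phosphate mannose, made by DPM1, DPM2 and DPM3, supplies mannose to both routes. In B cells the products include heavily glycosylated surface receptors and GPI-anchored proteins such as CD48, CD52 and CD59.

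The arrays numbered 2 and 3 were nearly alike within each group (Pearson r = 0.9984 in MALC and 0.9985 in suspension over all probe sets, on the log2 scale), whereas sample 1 correlated with them at 0.9949 to 0.9955. MALC 1 was also the MALC array nearest to suspension (r = 0.9874 to 0.9888, against 0.9768 to 0.9815 for MALC 2 and MALC 3). Whether each sample was a culture of its own is not in the labels, and the p-values speak only of how these samples vary, and that variation may be technical. Array medians lay between 80.75 and 81.67. The ratio of 3′ to 5′ signal of the ACTB control, a sign of RNA integrity, ranged from 1.22 to 1.33 in MALC and from 1.31 to 1.54 in suspension; its part in the results was not tested. B cell markers were bright in both groups: for the 5 of 6 markers with a probe set, the summed signal ranged from 27830 to 31910 in MALC and from 28000 to 33430 in suspension, and none of the 5 passed the test. Summed signals of markers of T cells (260.6 to 277.8 in MALC, 280.8 to 295.3 in suspension), monocytes and macrophages (166.8 to 185.3 and 175 to 185.7), epithelium (277 to 314.7 and 287.8 to 293.6) and endothelium (253.5 to 264.2 and 257.8 to 309.2) were low. Stromal markers summed to 436.7 to 487 in MALC and 499.1 to 953.7 in suspension. Less RNA of a gene per cell and fewer cells that express it cannot be told apart in such bulk samples.

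With each gene read from its brightest probe set, 20 of the 43 genes fell in MALC and 5 rose, while 18 did not pass the test. Falls were concentrated by count in the N-glycan route, where 12 of 17 genes (70.6%) fell and only ALG2 rose, with a median log2 change of −0.43. Among 23 GPI genes, 6 fell (26.1%) and 4 rose (17.4%), with a median of −0.06. These values were near those of all genes tested, of which 23.7% fell and 19% rose, with a median of −0.06. Of the 3 DPM genes, DPM1 and DPM2 fell. Falls were largest for PIGW (2.63-fold lower in MALC), ALG13 (1.90-fold, for its brightest probe set) and PIGK (1.79-fold), and the largest rises on that reading were those of PIGG (1.72-fold) and PIGP (1.51-fold). Other probe sets of ALG13 rose by more, up to 2.56-fold. The difference between the GPI and the N-glycan genes was not tested, and its size by medians varied with the choice of probe set. With the mean of probe sets the medians were −0.07 for GPI and −0.31 for N-glycan genes. They were −0.12 and −0.16 without probe sets whose names end in _s_at or _x_at, which left 34 of the 43 genes.

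Signals were compared as log2(signal + 16) with limma, and calls were made at a Benjamini-Hochberg adjusted p of 0.05 over all 13765 genes tested. All 43 genes lay above the filter on low signals. The background was high: 42.7% of all genes tested changed, 23.7% lower and 19% higher in MALC, with a median log2 change of −0.06. The 43 genes had a median of −0.17, and 58.1% of them changed. In 25 of them every MALC array lay below every suspension array, and in 5 above, against 33.8% and 23.1% of all genes tested (56.9% in either direction). Changes past a fold of 1.5 were found for 7 falls and 2 rises, where 6.34% of all genes tested fell and 7.45% rose by that much. Without MALC 2, MALC 3 or suspension 3, the falls numbered 12, 11 and 12 and the rises 3 each. Of all genes tested, 28.9%, 30.8% and 32.9% changed in these fits, against 42.7% with all arrays. Without suspension 2 the rises numbered 3 as well, where 33.2% of all genes tested changed. GPI genes that fell numbered 3, 2, 3, 3 and 2 without MALC 2, MALC 3, suspension 1, suspension 2 and suspension 3, and those that rose 2 in each of these except suspension 1, where 4 did. N-glycan rises numbered 2 without suspension 1. With the nearly alike samples 2 and 3 of each group averaged into 1, an alternative added after seeing the data, 9 genes fell and 1, PIGG, rose. In that fit 17% of all genes tested changed. Among calls that no left-out array ended, those of PIGP (adjusted p = 0.0665), DPM2 (0.0652), RPN1 (0.0866) and ALG2 (0.102) were lost in that fit.

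**Figure D1:**
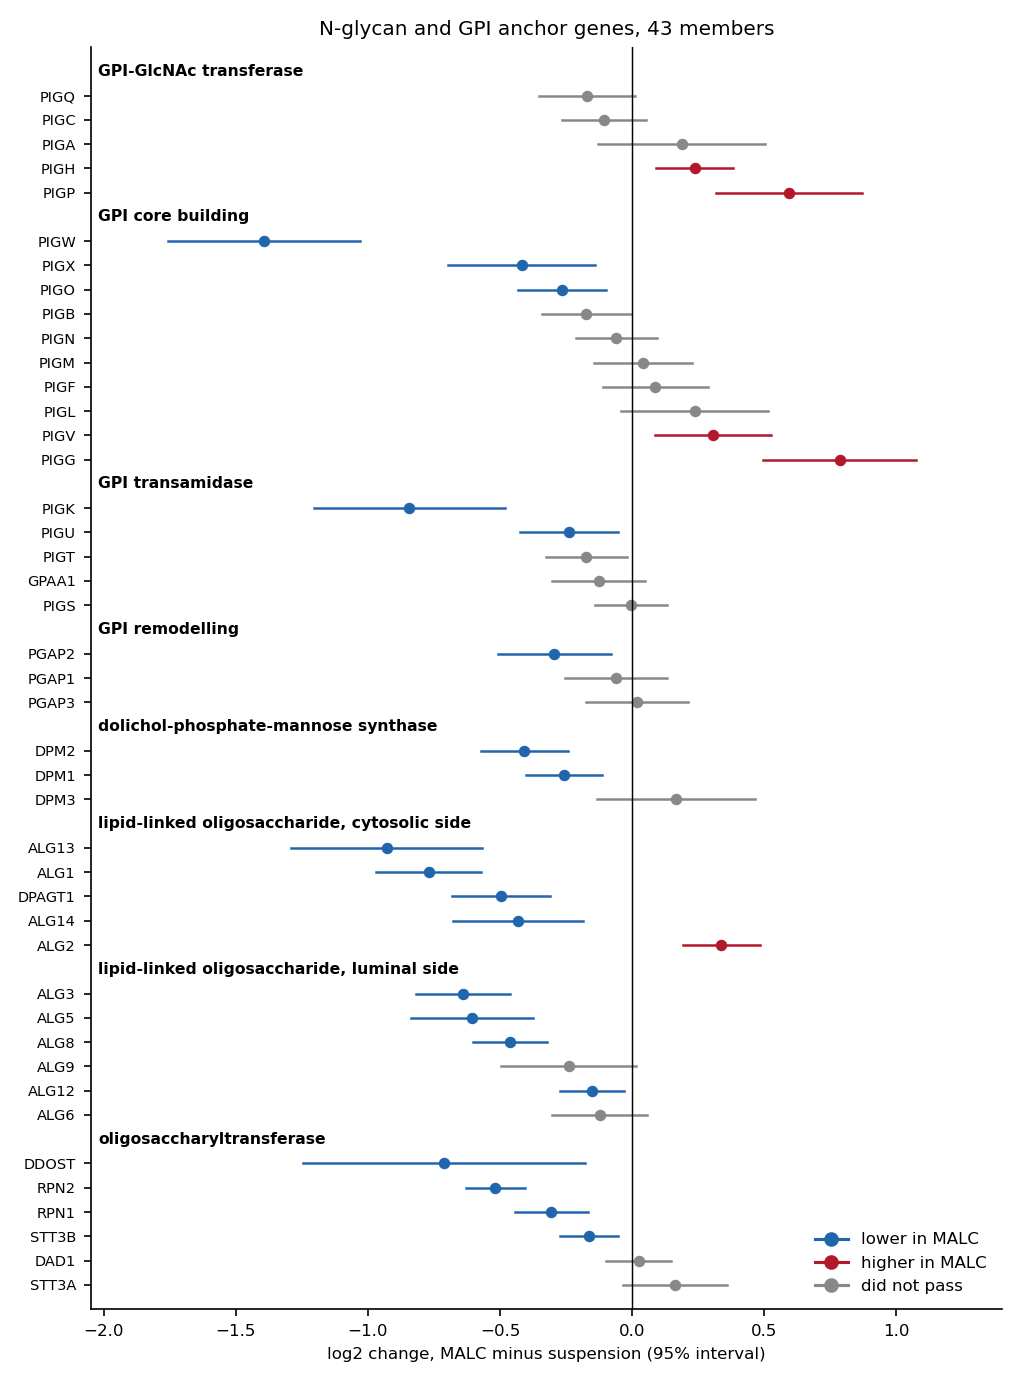
Log2 change (MALC minus suspension) of the 43 genes, grouped by role, with 95% intervals from limma over 3 arrays per group; blue marks genes lower and red genes higher in MALC at adjusted p 0.05, grey those that did not pass. In the lipid-linked oligosaccharide groups, points lie left of 0 except for ALG2, while GPI genes spread to both sides, from −1.39 (PIGW) to 0.79 (PIGG). Of all 13765 genes tested, 8466 had log2 changes below 0.

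Promoter windows from RefSeq (GRCh38.p14), reaching from 250 bases before to 50 bases after an annotated start, were matched for 37 of the 43 genes. They were searched on both strands for elements known from stress of the endoplasmic reticulum, since glycosylation genes serve that compartment, and, after the data were seen, for the E-box CACGTG. The endoplasmic reticulum stress response element was found for 1 of 37 genes, ALG12, against 0.0916% of 27305 genes in the table. TGACGTGG was found for PIGP alone (0.927% of genes in the table), and the related element ERSE-II for none (0.0696%). CACGTG was found for 5 of 37 genes, or 13.5%, against 8.77% of genes in the table. These were ALG1, ALG3, DDOST and PIGW, which fell, and PIGP, which rose. A match describes these letters only. Windows are shown for the largest fall (PIGW) and for ALG1, whose fall was kept under the alternatives run. Those of the pair of genes with a stress element, ALG12 and PIGP, are shown as well. PIGP rose, while the fall of ALG12 was lost when any array was left out (adjusted p 0.0617 to 0.136 by limma). Capitals mark the matches.
PIGW: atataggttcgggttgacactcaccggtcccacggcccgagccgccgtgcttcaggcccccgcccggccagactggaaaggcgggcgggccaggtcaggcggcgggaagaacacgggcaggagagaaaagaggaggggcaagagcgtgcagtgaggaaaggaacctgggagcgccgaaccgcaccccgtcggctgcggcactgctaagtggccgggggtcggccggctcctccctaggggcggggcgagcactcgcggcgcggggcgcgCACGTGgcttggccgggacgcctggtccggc
ALG1: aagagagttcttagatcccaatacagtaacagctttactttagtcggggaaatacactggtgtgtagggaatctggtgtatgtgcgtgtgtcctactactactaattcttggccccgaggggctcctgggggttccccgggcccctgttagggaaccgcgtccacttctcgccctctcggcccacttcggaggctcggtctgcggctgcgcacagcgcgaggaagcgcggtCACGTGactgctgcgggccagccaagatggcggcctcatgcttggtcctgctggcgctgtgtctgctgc
ALG12: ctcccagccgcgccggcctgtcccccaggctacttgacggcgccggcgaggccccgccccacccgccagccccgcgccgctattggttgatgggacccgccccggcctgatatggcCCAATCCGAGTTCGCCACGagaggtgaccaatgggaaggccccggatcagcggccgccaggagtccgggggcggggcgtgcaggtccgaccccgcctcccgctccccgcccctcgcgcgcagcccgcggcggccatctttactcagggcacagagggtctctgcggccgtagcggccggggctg
PIGP: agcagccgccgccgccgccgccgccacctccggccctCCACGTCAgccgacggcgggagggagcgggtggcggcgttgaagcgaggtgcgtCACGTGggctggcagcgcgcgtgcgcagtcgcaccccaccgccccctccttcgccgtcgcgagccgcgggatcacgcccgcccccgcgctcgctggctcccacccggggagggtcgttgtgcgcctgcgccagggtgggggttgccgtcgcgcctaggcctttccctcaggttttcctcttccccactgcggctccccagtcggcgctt
The PIGW window lies at chr17:36534737-36535036 on the plus strand, with CACGTG at positions 19 to 24 relative to the start. The ALG1 window is at chr16:5071593-5071892, plus strand, with the E-box at −19 to −14. The ALG12 window is at chr22:49918389-49918688, minus strand, where the 19-letter match lies at −134 to −116. The PIGP window is at chr21:37073022-37073321, minus strand; its first match, read on the opposite strand as TGACGTGG, lies at −213 to −206, and CACGTG at −159 to −154.

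GPI synthesis starts with the transfer of N-acetylglucosamine to phosphatidylinositol by a complex of PIGA, PIGC, PIGH, PIGP and PIGQ. PIGP rose: its signals were 3931, 5297 and 5297 in MALC 1 to 3 and 2958, 3299 and 3273 in suspension 1 to 3. The groups did not overlap, and MALC 1 was the lowest of the MALC arrays (log2 change 0.59 ± 0.12 SE, adjusted p = 0.00597 by limma, 0.0665 with samples 2 and 3 averaged). PIGH, which binds the catalytic subunit, had 709, 675 and 694 in MALC against 578, 586 and 592 in suspension. It rose 1.18-fold (adjusted p = 0.0182), a call that needed each of MALC 2, MALC 3, suspension 2 and suspension 3 (adjusted p 0.0512 to 0.0683 with any of these left out). PIGA, the catalytic subunit, whose somatic loss causes paroxysmal nocturnal haemoglobinuria, had 885, 659 and 606 in MALC and 658, 596 and 605 in suspension. Its groups overlapped, MALC 1 alone stood out, and it did not pass (log2 change 0.19, 95% interval −0.13 to 0.50, adjusted p = 0.295). PIGC and PIGQ had log2 changes of −0.11 and −0.17 and did not pass, although in both every MALC array lay below every suspension array.

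The next enzymes build the GPI core by deacetylation, acylation of inositol, and addition of mannoses and ethanolamine phosphates. PIGW, the inositol acyltransferase, had the lowest log2 change of the 43 genes. Its signals were 408, 280.15 and 255 in MALC against 811, 838 and 855 in suspension, so the highest MALC array lay far below the lowest suspension array (log2 change −1.39 ± 0.16 SE, adjusted p = 0.000646). Its call and direction were kept under the 17 alternatives that gave it a value. Its only probe set ends in _s_at, so leaving out such probe sets gave none. PIGX, which stabilises the mannosyltransferase PIGM, had 793, 686 and 583 in MALC and 1003.5, 859.9 and 894 in suspension. It fell 1.34-fold (adjusted p = 0.0248), and did not pass once MALC 2, MALC 3, suspension 1 or suspension 3 was omitted (adjusted p 0.0598 to 0.0741). PIGO, which adds ethanolamine phosphate to the third mannose, fell with a log2 change of −0.26, a call lost without MALC 3, suspension 2 or suspension 3 (adjusted p 0.0633 to 0.0742).

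PIGG and PIGV moved the other way. PIGG, which adds ethanolamine phosphate to the second mannose, had 2131, 2615 and 2872 in MALC and 1291, 1579 and 1512 in suspension, with no overlap (log2 change 0.79 ± 0.12 SE, adjusted p = 0.00218). This value came from a probe set whose name ends in _s_at, which may share signal with other transcripts. The other PIGG probe sets that passed the filter were dimmer, at 99.0 to 131 in MALC, and had log2 changes of 0.09 and 0.12 that did not pass (adjusted p = 0.346 and 0.296). PIGV, which transfers the second mannose, rose 1.24-fold. A further PIGV probe set rose by 0.34 on the log2 scale (adjusted p = 0.0106) and a dim one had −0.10. The gene did not pass once MALC 2, MALC 3, suspension 2 or suspension 3 was omitted (adjusted p 0.0998 to 0.127), nor after quantile normalization. PIGL, PIGM, PIGB, PIGN and PIGF did not pass, with log2 changes between −0.17 (PIGB) and 0.24 (PIGL). Without MALC 1, PIGL passed as higher (0.35, adjusted p = 0.019) and PIGB as lower (−0.21, adjusted p = 0.0367).

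The transamidase that joins the finished anchor to proteins consists of PIGK, GPAA1, PIGS, PIGT and PIGU. Log2 changes of all 5 were below 0, as were those of 8466 of the 13765 genes tested. Of the 5, 2 fell (40%), against 23.7% of all genes tested. PIGK, the catalytic protease subunit, had 413, 314 and 277 in MALC and 708, 553 and 565 in suspension. MALC 1 and suspension 1 were the highest of their groups, and the groups stayed apart (log2 change −0.84 ± 0.15 SE, adjusted p = 0.00408). A second PIGK probe set fell by 0.53 on the log2 scale (adjusted p = 0.00935). PIGU had 339.7, 325 and 320.5 in MALC and 432, 374 and 367 in suspension. Its fall (log2 change −0.24, adjusted p = 0.0453) held without MALC 1 and did not pass without any other single array (adjusted p 0.0585 to 0.126). PIGT (−0.17), GPAA1 (−0.13) and PIGS (−0.0042, at 307 to 313 in MALC and 302 to 317 in suspension) did not pass, although PIGT passed as lower without MALC 1 (−0.20, adjusted p = 0.0309). Among the remodelling enzymes, PGAP2, which acts on the lipid part in the Golgi, fell 1.23-fold. It had 921, 792 and 769.9 in MALC and 1097.5, 985 and 969 in suspension. PGAP2 did not pass on omission of any single array other than MALC 1 (adjusted p 0.0637 to 0.122). PGAP1, the inositol deacylase, and PGAP3 had log2 changes of −0.06 and 0.02 and did not pass, although a dimmer PGAP1 probe set rose by 0.34 (adjusted p = 0.0197).

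Dolichol phosphate mannose synthase feeds both routes. DPM1, its catalytic subunit, had 5239.7, 4627 and 4754 in MALC and 5952, 5571.5 and 5937 in suspension. The groups did not overlap, and DPM1 fell 1.19-fold (adjusted p = 0.0131), a call lost without MALC 2, MALC 3 or suspension 3 (adjusted p 0.0502 to 0.0609). DPM2, a regulatory subunit, had 583, 539 and 523 against 752, 737 and 709.7 and fell 1.33-fold (adjusted p = 0.00314, and 0.0652 with samples 2 and 3 averaged). DPM3, the tether of DPM1, did not pass (log2 change 0.16, adjusted p = 0.329), but passed as higher without suspension 1 (0.32, adjusted p = 0.0104). Its suspension 1 signal of 557 lay above all MALC arrays, while suspension 2 and 3, at 397 and 401, lay below them.

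**Figure D2:**
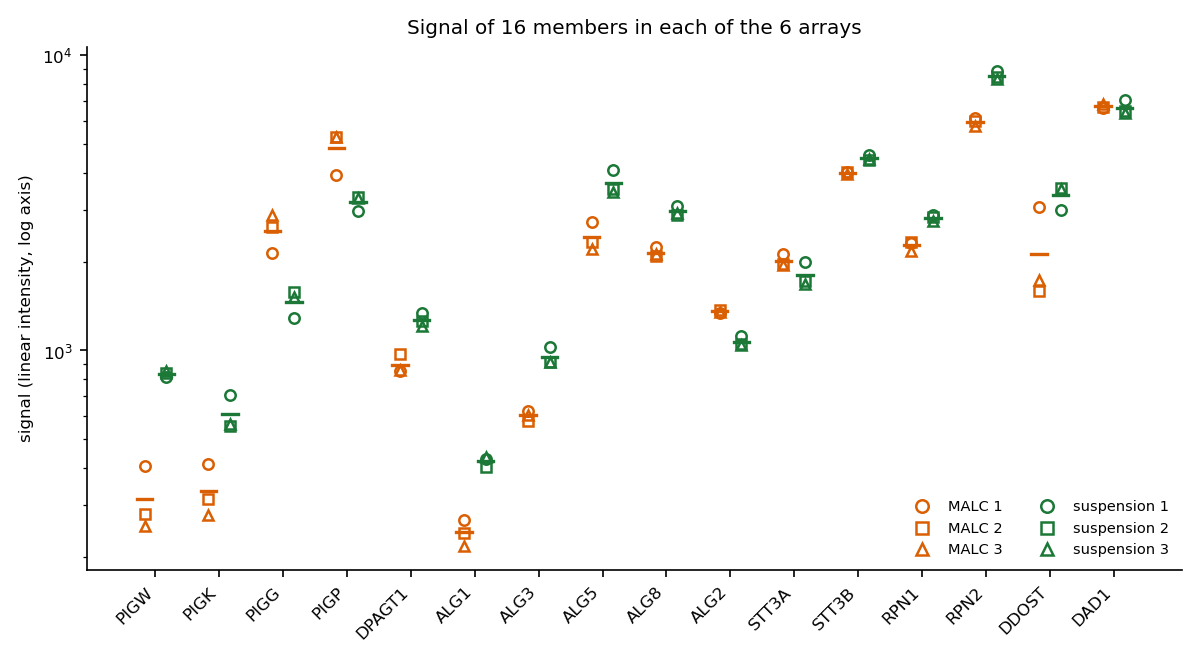
Signal (linear intensity on a log axis) of 16 genes in each of the 6 arrays, MALC in orange and suspension in green, with the symbol shape giving the sample number and a bar at the group mean. PIGW, DPAGT1, ALG1, ALG3, ALG5, ALG8 and RPN2 show MALC arrays wholly below suspension, PIGG, PIGP and ALG2 wholly above, and in DDOST MALC 1 lies among the suspension arrays.

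Assembly of the lipid-linked oligosaccharide begins on the cytosolic face. The probe sets that stand for its 5 genes all passed, where 42.7% of all genes tested changed. Of the 5, 4 were lower (80%), against 23.7% of all genes tested, and for ALG13 other probe sets rose. DPAGT1, which starts the chain and is the target of tunicamycin, had 854.5, 969 and 859 in MALC and 1342, 1254 and 1207 in suspension. It fell 1.41-fold with no overlap (log2 change −0.50 ± 0.08 SE, adjusted p = 0.00229). ALG1, which adds the first mannose, had 268, 242 and 217 in MALC and 429, 404 and 437 in suspension, 1.71-fold lower (adjusted p = 0.000637). Every MALC array of ALG1 lay below every suspension array by a wide margin, as in PIGW. ALG14, the membrane anchor of the transferase that adds the second sugar, fell with a log2 change of −0.43 (adjusted p = 0.0139), a call lost without MALC 2 or MALC 3 (adjusted p 0.054 to 0.0601). ALG2, the next mannosyltransferase, rose: it had 1342, 1375 and 1350.5 in MALC against 1116, 1051 and 1043 in suspension (log2 change 0.34 ± 0.06 SE, adjusted p = 0.00435). A dim second ALG2 probe set had a log2 change of −0.03, and with the mean of its probe sets ALG2 did not pass (adjusted p = 0.066).

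ALG13, the partner of ALG14 that holds the catalytic part, gave opposite results by probe set. The brightest, 222808_at, had 1092, 816 and 764 in MALC and 1429.6, 1787 and 1889.9 in suspension. A second, 219015_s_at, was likewise lower in MALC, at 555, 513 and 454 against 891, 901 and 964. These fell 1.90- and 1.79-fold (adjusted p = 0.00285 and 0.000583 in the fit over 32768 probe sets). By contrast, 205583_s_at had 1314, 1263.5 and 1304 in MALC against 536, 464 and 525 in suspension, and 205584_at had 733, 783 and 741 against 292, 269.5 and 290.45. They rose 2.50- and 2.56-fold (adjusted p = 9.18e-05 and 6.60e-05), with no overlap and little spread within groups. The fifth probe set, 232435_at, was dim and did not pass. ALG13 is known to give rise to a short form, which works with ALG14, and longer forms with added domains; which transcripts each probe set detects is not given in the sources used here. With the mean of the probe sets the log2 change of ALG13 was 0.17 (adjusted p = 0.0945), so its fall holds for the brightest probe set and not for the gene as a whole. Of the 23 genes with more than 1 tested probe set, ALG13 was the only member with calls in both directions, a pattern found in 4.89% of all 6707 genes with more than 1 tested probe set. In 13 of the 23 the log2 changes of all tested probe sets had the same sign, whether or not they passed. Such likeness of sign was not counted over all genes, so the share has no background to be read against. Counted by probe set, 24 of the 77 tested for these genes fell and 9 rose, where 41.7% of all probe sets changed, 20.4% lower and 21.2% higher.

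**Figure D3:**
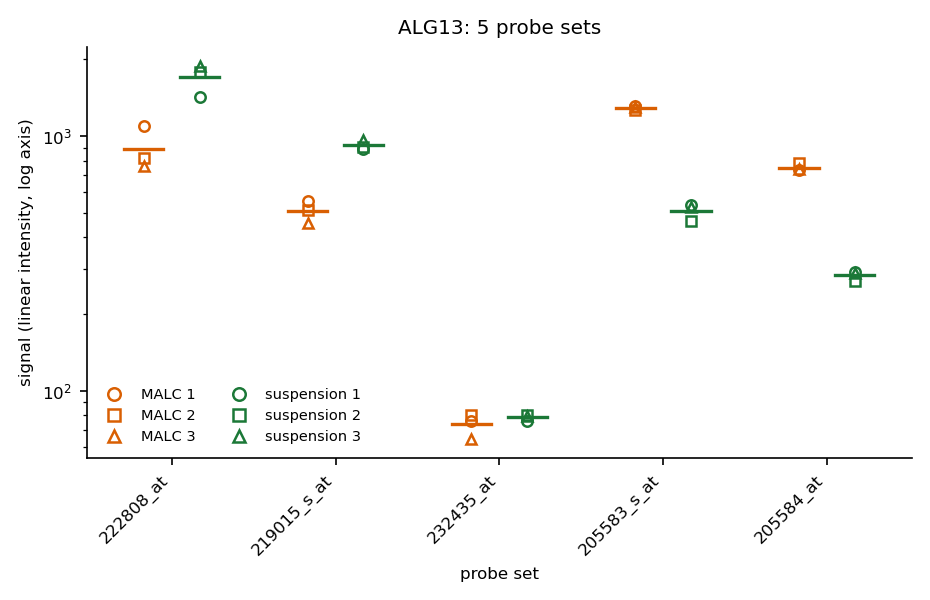
Signal (linear intensity on a log axis) of the 5 ALG13 probe sets in the 6 arrays, with MALC in orange, suspension in green, and bars at group means of 3 arrays. On the left 222808_at and 219015_s_at are lower in MALC, on the right 205583_s_at and 205584_at are higher, and 232435_at overlaps.

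The 6 genes grouped for the luminal side carry out its steps, except ALG5, which makes a sugar donor for them. All 6 had log2 changes below 0, as did 8466 of the 13765 genes tested. Of the 6, 4 fell (66.7%), against 23.7% of all genes tested. ALG3, the first luminal mannosyltransferase, had 625, 579 and 607 in MALC and 1029, 912 and 914 in suspension, 1.56-fold lower (adjusted p = 0.000782). ALG5, which makes dolichol phosphate glucose, had 2718, 2325 and 2204 against 4087, 3515 and 3447, 1.52-fold lower (adjusted p = 0.00255). ALG8, which adds the second glucose, had 2233.5, 2085 and 2115 against 3080.0, 2880.4 and 2926.5, 1.38-fold lower (adjusted p = 0.00105). These 3 genes were low in every MALC array, including MALC 1. ALG12, a mannosyltransferase, was dim, at 75.4 to 81.5 in MALC and 87.6 to 90.3 in suspension. Its fall (log2 change −0.15, adjusted p = 0.0463) was lost when any array was left out (adjusted p 0.0617 to 0.136), and in the fit blocked on sample number (adjusted p = 0.0728). ALG6, which adds the first glucose, did not pass (−0.12, adjusted p = 0.231). ALG9, a further mannosyltransferase, did not pass either (−0.24, adjusted p = 0.112). In that blocked fit ALG9 passed (adjusted p = 0.0366), as it did without MALC 1 (log2 change −0.36, adjusted p = 0.00603), whereas a dimmer probe set had a log2 change of 0.30.

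The oligosaccharyltransferase attaches the finished tree to proteins. Of its 6 listed subunit genes, 4 fell (66.7%), against 23.7% of all genes tested. RPN2 had 6142, 5968.5 and 5732 in MALC and 8844, 8430.2 and 8294 in suspension. It fell 1.43-fold (log2 change −0.52 ± 0.05 SE, adjusted p = 0.000365), and its other probe sets fell by 0.47 and 0.53 on the log2 scale. RPN1 had 2317, 2338 and 2163.5 against 2868, 2831 and 2735 and fell 1.24-fold (adjusted p = 0.00524, and 0.0866 with samples 2 and 3 averaged). In both ribophorin genes every MALC array lay below every suspension array. STT3B and STT3A are alternative catalytic subunits: STT3A complexes act as proteins enter the endoplasmic reticulum, STT3B complexes also on sites that were skipped. STT3B had 4015, 4013 and 3948 in MALC and 4573, 4400.4 and 4458 in suspension. It fell 1.12-fold (adjusted p = 0.0255), but did not pass once MALC 2, MALC 3, suspension 2 or suspension 3 was omitted (adjusted p 0.0715 to 0.0858). STT3A had 2124, 1966 and 1942 against 2000.1, 1716 and 1677, with overlapping groups (log2 change 0.16, 95% interval −0.03 to 0.36, adjusted p = 0.155; without suspension 1 it passed as higher). Whether STT3A and STT3B changed differently was not tested. DAD1, a small subunit, did not pass (6642 to 6839 in MALC, 6362 to 7044 in suspension, log2 change 0.02, 95% interval −0.10 to 0.15).

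DDOST, a further subunit, depended on single arrays. Its signals were 3069.6, 1585 and 1727 in MALC and 2997.5, 3560.4 and 3507 in suspension, so MALC 1 lay within the suspension range and MALC 2 and MALC 3 far below it. The second DDOST probe set had 2451.5, 1515 and 1363 against 2482.5, 2626 and 2818, with MALC 1 again near suspension. DDOST passed as lower (log2 change −0.71 ± 0.23 SE, adjusted p = 0.0387). Without MALC 1 the log2 change was −1.01 (adjusted p = 0.000133), without MALC 2 −0.54 (adjusted p = 0.129), and the call was also lost without MALC 3 or any suspension array. Across the list, MALC 1 was the MALC array nearest to suspension in 16 of the 20 genes that fell and 4 of the 5 that rose, against 76.5% and 72.1% of all genes that fell and rose.

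Other genes of the pathways were counted from lists written with results of these data known. For comparison, 23.7% of all genes tested fell and 19% rose. Of 6 measured genes for dolichol synthesis and the remaining oligosaccharide steps, all 6 fell. MPDU1, needed to use dolichol-linked sugars, fell from 544 ± 99.8 to 255 ± 46.2 (mean ± SD, n = 3 each, log2 change −1.05, adjusted p = 0.00208 by limma). DOLK, the dolichol kinase, and ALG10, which adds the last glucose, had log2 changes of −0.63 and −0.51. Of 6 other oligosaccharyltransferase-related genes, 3 fell and 2 rose. MLEC, a lectin bound to the complex, and MAGT1, an oxidoreductase subunit of STT3B complexes, fell 1.47- and 1.31-fold (MAGT1 did not pass on a probe set without the _s_at ending, log2 change −0.21, adjusted p = 0.133), while the small subunit gene TMEM258 rose 1.29-fold, from 7629.9 ± 216 to 9839 ± 102 (adjusted p = 0.000606). Of 5 other GPI genes, CLPTM1L (log2 change −0.62) and ARV1 (−0.53; −0.15, adjusted p = 0.103, with the mean of its probe sets) fell and PIGZ rose (0.31, not passing once MALC 2, MALC 3, suspension 1 or suspension 3 was omitted, adjusted p 0.0652 to 0.095). Of 7 sugar donor genes, 3 fell and 2 rose, led by GNPNAT1 (−0.51), MPI (0.37) and GMPPA (−0.36, adjusted p = 0.0581 without suspension 2).

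**Figure D4:**
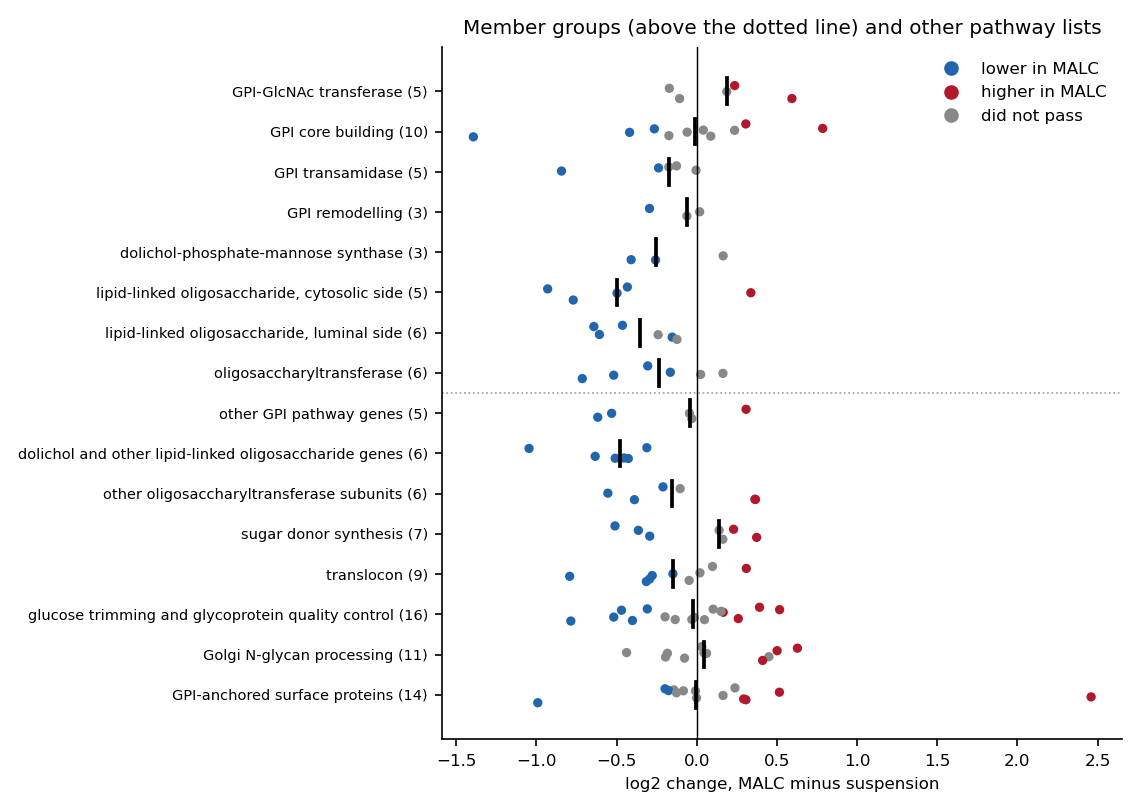
Log2 change (MALC minus suspension) of each tested gene, by role group of the 43 genes (above the dotted line) and by other pathway list (below), with the number tested in brackets and a black bar at the median. Medians of the lipid-linked oligosaccharide and dolichol lists lie between −0.50 and −0.35, while GPI-anchored surface proteins spread around 0, with CD24 at 2.46.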

How the data were processed

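Total RNA of 3 MALC and 3 suspension samples was extracted with Trizol and hybridised to Affymetrix U133 Plus arrays, per the labels' protocols. The authors deposited linear intensities, 1 per probe set and array. MAS5 is the only tool in the submitters' processing notes; background correction and scaling between arrays are not given in the sources used here, so a shift of all transcripts could be hidden. The number of arrays limits the precision. Groups and numbers came from the sample titles.

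Symbols came from the platform annotation, updated through Entrez IDs with RefSeq (GRCh38.p14), which held 41037 of 41091 probe sets with 1 symbol; 54 kept the annotation's symbol, and probe sets with several (1801) or none (11721) named no gene. Intensities were set to log2(value + 16), and those whose mean reached the 40th percentile, a signal of 53.4, were tested (32768 probe sets). The probe set with the highest mean stood for a gene, for 12 of the 43 genes an _s_at or _x_at probe set. MALC and suspension were tested with limma 3.58.1 (R 4.3.3) (eBayes with trend, two-sided, group only, Benjamini-Hochberg over all features). Every fold change is of signal + 16, so changes of dim genes come out too small. Signals in the text are the deposited intensities. The genes, lists and tests were chosen with earlier results of these data known. Signals by sample are given for up to 3 genes of each role group with the largest change among those past the threshold without overlap, and for DPAGT1, PIGA, DPM1, STT3A and STT3B; up to 3 genes of each other list are named by size of change. ALG2 and the genes with values given beyond this rule, among them DDOST and DAD1, were chosen after their values were seen.

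The groups share sample numbers. Deviations from group means correlated at 0.22, 0.135 and 0.104 for samples numbered 1, 2 and 3, so the numbers were treated as pairing the samples in an alternative fit, although crossed pairs of 2 and 3 gave 0.12 and 0.129. The fit was tested on simulated data with errors drawn independently for each array, which leaves out the likeness of samples 2 and 3. Changes of 0.25, 0.5 and 1 on the log2 scale were set in 67, 67 and 66 of 13765 genes. They were recovered for 7.46%, 59.7% and 92.4% of these genes, with 6 false calls. Alternatives were pseudocount, filter, scaling, probe set choice, variance prior, array weights, sample block and left-out arrays.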

Additional observations from a re-analysis of the deposited data

How the results depend on the processing

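Of the 25 calls among the 43 genes, 8 were kept under each of the 18 alternatives that gave them a value: PIGW, PIGK, DPAGT1, ALG1, ALG3, ALG5, ALG8 and RPN2, all lower in MALC. Of the 18 genes that did not pass, 10 passed under no alternative.

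Without 1 array, the genes that changed numbered 14 to 28 (3 to 7 higher, 11 to 22 lower), GPI genes 2 to 5 higher and 2 to 8 lower, N-glycan genes 1 to 2 higher and 8 to 12 lower, and other pathway genes 27 to 47 (12 to 19 higher, 15 to 28 lower). Probe sets of the 43 genes that changed numbered 22 to 39, with 5 to 12 higher and 17 to 29 lower. Of all genes tested, 28.9% to 47.1% changed in these fits. With samples 2 and 3 averaged, 10 genes changed, 1 higher and 9 lower (GPI genes 1 and 2, N-glycan genes 0 and 7). In that fit 14 other pathway genes (6 and 8) and 13 probe sets (3 and 10) changed, and 17% of all genes tested. Here limma had 2 samples a group. Without _s_at and _x_at probe sets, which left 34 of the 43 genes, 16 changed, 3 higher and 13 lower. GPI genes numbered 2 higher and 4 lower, and N-glycan genes 1 higher and 7 lower. Of the probe sets of these genes 21 changed, 15 of them lower, and 37.7% of all genes tested changed. With array weights 9 genes were higher, 2 of them N-glycan genes, and 15 probe sets, while 64.5% of all genes tested changed. Array weights let PIGL (0.43), DPM3 (0.32), PIGF (0.20) and STT3A (0.20) pass as higher and PIGQ (−0.17), PIGB (−0.15), PIGT (−0.21) and ALG9 (−0.29) as lower. With the mean of probe sets 3 genes were higher and 0 N-glycan genes were. With the sample number as a replicate block 5 genes rose and 20 fell, as without it, and it changed no call of the 43 genes other than those of ALG9 and ALG12, and among other genes named that of BST2.

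Signs turned for ALG13 (0.17 with the mean of probe sets) and SSR1 (0.35, passing as higher at adjusted p = 0.0273, without _s_at and _x_at probe sets, where another probe set stood for it). Among genes that did not pass, quantile normalization turned PIGM (−0.025) and PGAP3 (−0.040). The mean of probe sets turned PIGM (−0.10), PIGF (−0.067), PGAP1 (0.046), PGAP3 (−0.046) and ALG9 (0.029). Leaving out _s_at and _x_at probe sets turned PIGF (−0.22) and ALG9 (0.30), array weights turned PGAP1 (0.053) and PGAP3 (−0.075), and averaging samples 2 and 3 turned DAD1 (−0.0028). Without 1 array, log2 changes ran from −0.035 to 0.088 for PIGM, −0.024 to 0.0098 for PIGS, −0.13 to 0.0020 for PGAP1, −0.047 to 0.068 for PGAP3 and −0.0030 to 0.070 for DAD1. The cause was not tested.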

Other observations

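Steps after the transfer of N-glycans did not share 1 direction, and among all genes tested 23.7% fell and 19% rose. Of 11 measured Golgi processing genes, 3 rose and none fell in limma (2 lower and 3 higher at an unadjusted p under 0.05): MGAT4B, which adds a branch to N-glycans, rose 1.55-fold, with 2261 ± 51.7 in MALC against 1458 ± 45.3 in suspension (mean ± SD, n = 3 for both). MGAT1, which starts complex glycans, rose 1.42-fold and ST6GAL1, the sialyltransferase of B cells that makes the CD22 ligand, 1.33-fold. Of 16 genes for glucose trimming and glycoprotein quality control, 5 fell (31.2%) and 4 rose (25%). The glucosidase genes GANAB and MOGS had log2 changes of −0.79 (adjusted p = 0.0531 without MALC 2) and −0.52, whereas EDEM1, which speeds disposal of misfolded glycoproteins, rose by 0.52. Of 9 translocon genes 5 fell and 1 rose. SEC61A1, the channel subunit next to the oligosaccharyltransferase, fell 1.73-fold, from 1259 ± 11.2 to 729.6 ± 149, and SSR2 rose by 0.31 on the log2 scale. SSR1 passed as lower (−0.31), but not without MALC 2 (adjusted p = 0.0537) or with the mean of its probe sets (−0.081, adjusted p = 0.295). Without _s_at and _x_at probe sets it passed as higher (0.35, adjusted p = 0.0273).

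Messages of GPI-anchored surface proteins, the substrates of the transamidase, were likewise mixed. Of 14 measured, 4 rose (28.6%) and 3 fell (21.4%), against 19% and 23.7% of all genes tested. CD24 rose 5.50-fold, from signals of 107, 207 and 215 in suspension 1 to 3 to 622, 1276 and 1267 in MALC 1 to 3. This probe set ends in _x_at and may share signal with other transcripts. Leaving out _s_at and _x_at probe sets gave CD24 no value. CD52, the target of alemtuzumab, rose 1.43-fold, from 6416 ± 640.0 to 9169.8 ± 747. BST2 had 718, 1153 and 1202.5 in suspension and 797, 369 and 409.7 in MALC, with MALC 1 above suspension 1. Its call as lower (log2 change −0.99, adjusted p = 0.0331) did not hold once MALC 2, MALC 3, suspension 2 or suspension 3 was omitted (adjusted p 0.0946 to 0.115), nor in the fit blocked on sample number (adjusted p = 0.0524). Surface protein was not measured.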
